A study of Mus musculus with 2 samples.

Results

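The 10 genes described here encode adipokines, proteins that coat or remodel lipid droplets, a fatty acid carrier and the receptor that governs fat cell differentiation. They were taken by their symbols, *Cfd*, *Adipoq*, *Retn*, *Lep*, *Fabp4*, *Plin1*, *Plin2*, *Plin4*, *Cidec* and *Pparg*, and all 10 were found among the 18159 genes listed. mRNA-seq was performed on the tunica muscularis of the jejunum, that is, the muscle layers of the middle small intestine peeled from the mucosa, of mice at 15 days of age. *Dnmt1*-KO mice carried floxed alleles of *Dnmt1*, the maintenance DNA methyltransferase, and the transgene Myh11-cre,-EGFP, in which the smooth muscle myosin heavy chain promoter drives Cre and a green reporter and removes exons 4 and 5 of *Dnmt1* from smooth muscle cells. The *Dnmt1*-WT mice carried the same Cre transgene, and the background strain of both groups was C57BL/6. Each genotype had 4 mice, 2 male and 2 female, but 1 library, and how their RNA was combined into it is not known here. The differences below therefore have no replicate check, no test was made and no error can be given. The strain label lists Dnmt1lox/lox for both libraries and one label field gives the knockout genotype for both, so the groups follow the titles and the genotype label.

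Fat cells store triglyceride in lipid droplets, whose surface proteins decide how droplets grow and when lipases reach them. The nuclear receptor PPARG, together with C/EBP factors, switches on most of the program, including the carrier FABP4, the coat protein PLIN1 and several secreted adipokines. In the gut, adipocytes lie mainly in the mesentery attached to the muscle wall, while enterocytes, macrophages and muscle cells can also hold droplets.

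The values are FPKM, fragment numbers divided by the length of the transcript and by how many fragments a library had mapped, so that they can be compared between genes. The reads behind a single gene are not known, and no counting error could be attached. Summed FPKM were 429698 for *Dnmt1*-WT and 460845 for *Dnmt1*-KO, and the lowest value above 0 was 0.03 in both. The targeted gene, *Dnmt1*, had 11.6 FPKM in *Dnmt1*-WT and 7.58 FPKM in *Dnmt1*-KO, a ratio of 0.655. This value covers the whole gene, including exons that the deletion leaves in place, and cells that do not express Cre. The reference genes *Gapdh* and *Actb* had ratios of 0.958 and 0.789.

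Of the 9 genes above 0 in both libraries, 8 were at least 2-fold higher in *Dnmt1*-KO and 0 were at a ratio of 0.5 or less. Among the 16102 genes above 0 in both libraries, 11.8% had a ratio of 2 or more and 4.98% a ratio of 0.5 or less. A ratio of 10 or more was found for 5 of the 9, *Retn*, *Plin1*, *Cfd*, *Adipoq* and *Cidec*, and for 1.12% of all genes. The median log2 ratio of the 9 genes was 4.27, and that of all genes was 0.01. In a bulk library, a larger number of cells of one type and more RNA per cell cannot be told apart.

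**Figure D1:**
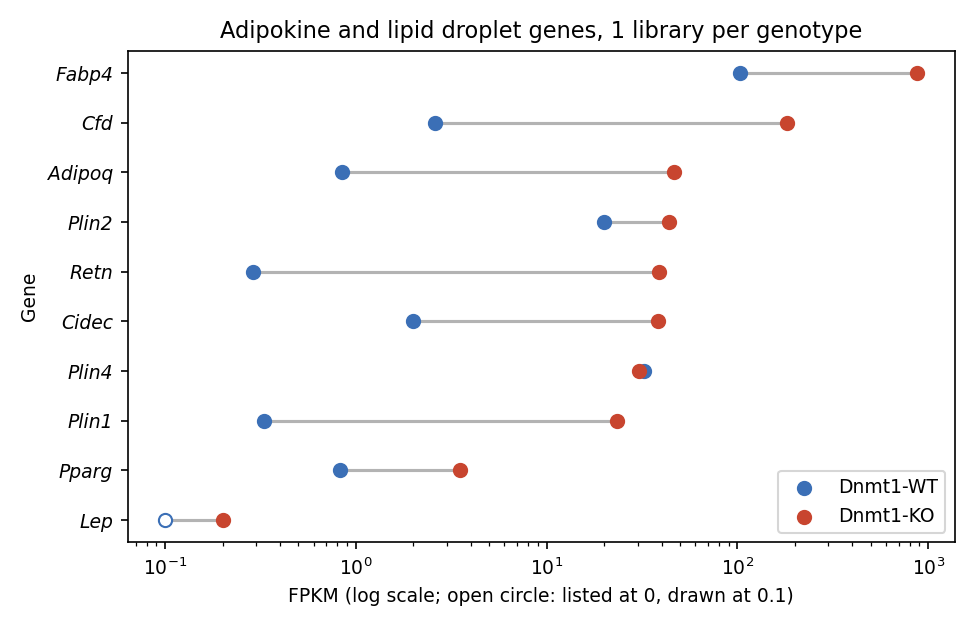
FPKM of each adipokine and lipid droplet gene in *Dnmt1*-WT (blue) and *Dnmt1*-KO (red) on a log axis, with 1 library per genotype and a grey line joining the pair. Plin4 is the only gene whose points nearly coincide (32.3 and 30.3 FPKM), and the open circle of Lep is a value listed at 0.

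The stretches upstream of the start site are shown first for the 4 genes with ratios above 50, for *Plin4*, whose level was nearly equal in both libraries, and for the start site of *Pparg* that lies farthest downstream. DNMT1 methylates the CG dinucleotide, and every CG is in capitals. Sequences are from RefSeq, build GRCm38.p6, and run 5′ to 3′ on the strand of the gene. Bases that GENCODE M21 places in an exon were left out, which shortened *Plin1* to 123 and *Plin4* to 229 of the 250 upstream bases.
Retn (chr8:3655520-3655769, plus strand): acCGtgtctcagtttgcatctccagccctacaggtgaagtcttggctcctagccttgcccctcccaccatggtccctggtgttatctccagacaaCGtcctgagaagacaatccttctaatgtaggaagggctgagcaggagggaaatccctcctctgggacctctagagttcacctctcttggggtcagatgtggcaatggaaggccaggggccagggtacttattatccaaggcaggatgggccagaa
Plin1 (chr7:79732904-79733026, minus strand): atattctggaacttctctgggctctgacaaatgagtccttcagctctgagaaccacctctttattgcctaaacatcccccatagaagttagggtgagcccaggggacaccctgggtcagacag
Cfd (chr10:79890603-79890852, plus strand): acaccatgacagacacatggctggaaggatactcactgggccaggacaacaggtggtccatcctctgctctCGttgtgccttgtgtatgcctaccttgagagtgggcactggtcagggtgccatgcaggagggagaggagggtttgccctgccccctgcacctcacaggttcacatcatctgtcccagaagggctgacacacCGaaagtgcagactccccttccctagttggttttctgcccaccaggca
Adipoq (chr16:23146286-23146535, plus strand): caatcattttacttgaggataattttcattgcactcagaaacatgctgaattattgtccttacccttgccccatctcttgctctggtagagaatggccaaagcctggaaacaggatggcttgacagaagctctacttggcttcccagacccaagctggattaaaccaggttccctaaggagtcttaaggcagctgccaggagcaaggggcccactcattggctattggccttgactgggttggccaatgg
Plin4 (chr17:56109804-56110032, minus strand): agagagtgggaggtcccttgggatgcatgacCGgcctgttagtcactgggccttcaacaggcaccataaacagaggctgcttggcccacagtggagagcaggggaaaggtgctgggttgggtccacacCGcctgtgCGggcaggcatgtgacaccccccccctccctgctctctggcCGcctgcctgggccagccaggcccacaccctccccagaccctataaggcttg
Pparg, downstream start (chr6:115421816-115422065, plus strand): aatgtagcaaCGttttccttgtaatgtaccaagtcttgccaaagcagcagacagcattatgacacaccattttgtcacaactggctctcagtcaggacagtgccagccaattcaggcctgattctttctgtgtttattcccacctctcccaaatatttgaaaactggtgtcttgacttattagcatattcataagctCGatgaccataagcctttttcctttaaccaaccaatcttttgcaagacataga

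Of the 12 start sites of these genes in the table, 5 had at most 3 CG, as did 37.8% of all promoters, and the median was 5. Over the full 250 bases, *Adipoq* had 0 CG, *Plin1* had 1, and *Cfd*, *Retn* and the downstream start of *Pparg* had 2 each. Among all 32851 promoters of the RefSeq table the median was 6 CG with quartiles of 2 and 16, and 7.87% had no CG. *Plin2* and *Plin4* were at the median with 6 CG each, and the 2 start sites of *Cidec* had 6 and 4. *Lep* had 16, and the upstream start sites of *Pparg* had 38 and 12. The table held 9 of the 10 genes, with 12 start sites in all, and *Fabp4* was not matched. The methylation state of these bases was not measured in the data used here.

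Letters bound by regulators of fat cells were searched on both strands of the same 250 bases. TTGCNNAA, the core that C/EBP factors bind, was found in 4 of the 12 stretches and in 9.56% of all promoters. It occurred in *Lep*, *Cidec*, the downstream start of *Pparg* and *Plin1*, where copies began 187 and 58 bases upstream. The *Plin1* copy at 58 bases lies in the exon bases left out of the stretch shown above. AGGTCA, a recognition element of nuclear receptors, was in 3 of the 12, of *Plin2* and of the 2 upstream starts of *Pparg*, against 14.0% of all. AGGTCA in a pair 1 base apart, the arrangement that PPARG binds with its partner RXR, was in 0 of the 12 and in 0.0335% of all promoters. TATAAA was in 1 of the 12, of *Pparg*, and in 12.4% of all. The AGGTCA and TATAAA matches at the upstream starts of *Pparg* lie in bases that GENCODE M21 places in an exon. These matches describe letters in a short window and were not tied to binding.

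The adipokines are hormones and serum proteins that fat cells release. *Cfd*, which encodes adipsin or complement factor D, the protease that starts the alternative complement pathway, had 2.61 FPKM in *Dnmt1*-WT and 183 FPKM in *Dnmt1*-KO. Its ratio was 70.0, and its rank by FPKM went from 11128 to 356 among the listed genes. *Cfd* thereby stood among the abundant transcripts of the *Dnmt1*-KO library.

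*Adipoq* encodes adiponectin, a fat cell hormone that raises insulin sensitivity. It had 0.85 FPKM in *Dnmt1*-WT and 46.7 FPKM in *Dnmt1*-KO, a ratio of 55.0. *Retn* encodes resistin, which mouse fat cells secrete and which opposes insulin. It had 0.29 FPKM in *Dnmt1*-WT and 38.6 FPKM in *Dnmt1*-KO, a ratio of 133, with a range of 131 to 136 from rounding of the listed values. By ratio among the 16102 genes above 0 in both libraries, *Retn* ranked 4, *Cfd* 14 and *Adipoq* 19. The low starting values make these ratios sensitive to any amount added. With 1 FPKM added to each value the ratios of *Cfd*, *Retn* and *Adipoq* were 50.9, 30.7 and 25.8.

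*Lep*, the satiety hormone leptin, did not share these levels. It was listed at 0 in *Dnmt1*-WT and had 0.20 FPKM in *Dnmt1*-KO, so no ratio was formed. Of all genes, 953 were above 0 only in *Dnmt1*-KO, with a median of 0.13 FPKM, and 359 of them had 0.20 FPKM or more. The value of *Lep* was thus close to those of many genes listed in 1 library alone. Per length, *Cfd* was 3.07 times *Adipoq* in *Dnmt1*-WT and 3.91 times in *Dnmt1*-KO.

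*Fabp4* was the most abundant of the 10 genes in both libraries. It encodes the fatty acid binding protein of adipocytes, also called aP2, which capillary endothelium and macrophages make too. It had 104 FPKM in *Dnmt1*-WT and 875 FPKM in *Dnmt1*-KO, a ratio of 8.43, and its rank by FPKM went from 612 to 76. *Fabp4* made up 63.7% of the summed FPKM of the 10 genes in *Dnmt1*-WT and 68.2% in *Dnmt1*-KO. That sum was 163 and 1282 FPKM, a ratio of 7.87, and without *Fabp4* it was 59.1 and 407 FPKM, a ratio of 6.89.

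The 3 perilipins and *Cidec* encode proteins of the droplet surface. PLIN1 coats the droplets of adipocytes and holds back lipolysis until the cell is stimulated. *Plin1* had 0.33 FPKM in *Dnmt1*-WT and 23.3 FPKM in *Dnmt1*-KO, a ratio of 70.7. *Cidec*, whose product fuses small droplets into a large one, had 1.99 FPKM in *Dnmt1*-WT and 38.3 FPKM in *Dnmt1*-KO, a ratio of 19.2. Both genes are typical of fat cells, and both were at 2 FPKM or less in *Dnmt1*-WT.

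The other perilipins differed far less. *Plin2*, the coat protein of droplets in most cell types, had 19.96 FPKM in *Dnmt1*-WT and 43.9 FPKM in *Dnmt1*-KO, a ratio of 2.20. *Plin4*, which coats nascent droplets and is also made in heart and skeletal muscle, had 32.3 FPKM in *Dnmt1*-WT and 30.3 FPKM in *Dnmt1*-KO, a ratio of 0.940. Under 4 other scalings of the libraries the ratio of *Plin2* lay between 2.05 and 2.30 and that of *Plin4* between 0.877 and 0.983. *Plin4* was the one gene of the 9 with a lower value in *Dnmt1*-KO, and it was under 1 in each of these scalings.

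Among all 5 perilipins the composition of the family differed between the libraries. *Plin4* held 45.4% of the summed level of the family in *Dnmt1*-WT and 24.7% in *Dnmt1*-KO, while *Plin2* held 28.1% and 35.7%. *Plin1* held 0.465% in *Dnmt1*-WT and 19.0% in *Dnmt1*-KO. *Plin3*, a perilipin of the cytosol and early droplets, had 18.5 and 24.8 FPKM, and *Plin5*, the perilipin of oxidative tissues, was listed at 0 and had 0.54 FPKM. The family sum was 71.0 FPKM in *Dnmt1*-WT and 123 FPKM in *Dnmt1*-KO. Of the gain, *Plin1* and *Plin2* had nearly equal parts, while the other members together added less.

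**Figure D2:**
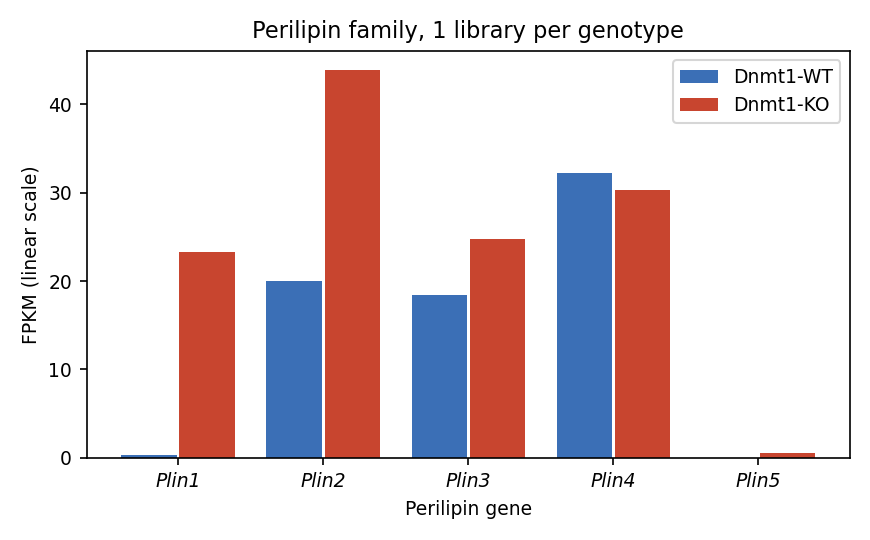
FPKM of the 5 perilipin genes on a linear axis from 0, with blue bars for the *Dnmt1*-WT library and red bars for the *Dnmt1*-KO library, 1 library each. Plin1 is near 0 in *Dnmt1*-WT and at 23.3 FPKM in *Dnmt1*-KO, while Plin4 is at 32.3 and 30.3 FPKM.

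*Pparg*, the receptor that drives fat cell differentiation, stayed at a low level in both libraries. It had 0.83 FPKM in *Dnmt1*-WT and 3.52 FPKM in *Dnmt1*-KO, a ratio of 4.24, or 2.47 with 1 FPKM added. Its level in *Dnmt1*-KO was below that of *Cfd*, *Fabp4*, *Adipoq*, *Retn*, *Plin1*, *Plin2*, *Plin4* and *Cidec*, and above that of *Lep*.

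Ordered by level, *Fabp4*, *Plin4* and *Plin2* were the 3 genes at 10 FPKM or more in *Dnmt1*-WT. *Cfd* and *Cidec* followed between 1.99 and 2.61 FPKM, and the other 5 were below 1 FPKM. In *Dnmt1*-KO, 8 of the 10 were at 10 FPKM or more, in the order *Fabp4*, *Cfd*, *Adipoq*, *Plin2*, *Retn*, *Cidec*, *Plin4* and *Plin1*. Among these, *Adipoq* and *Plin2* were close at 46.7 and 43.9 FPKM, as were *Retn* and *Cidec* at 38.6 and 38.3 FPKM, and with 1 library their order is not established. The 10 genes together took 0.0379% of all FPKM of the *Dnmt1*-WT library and 0.278% of those of the *Dnmt1*-KO library.

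**Figure D3:**
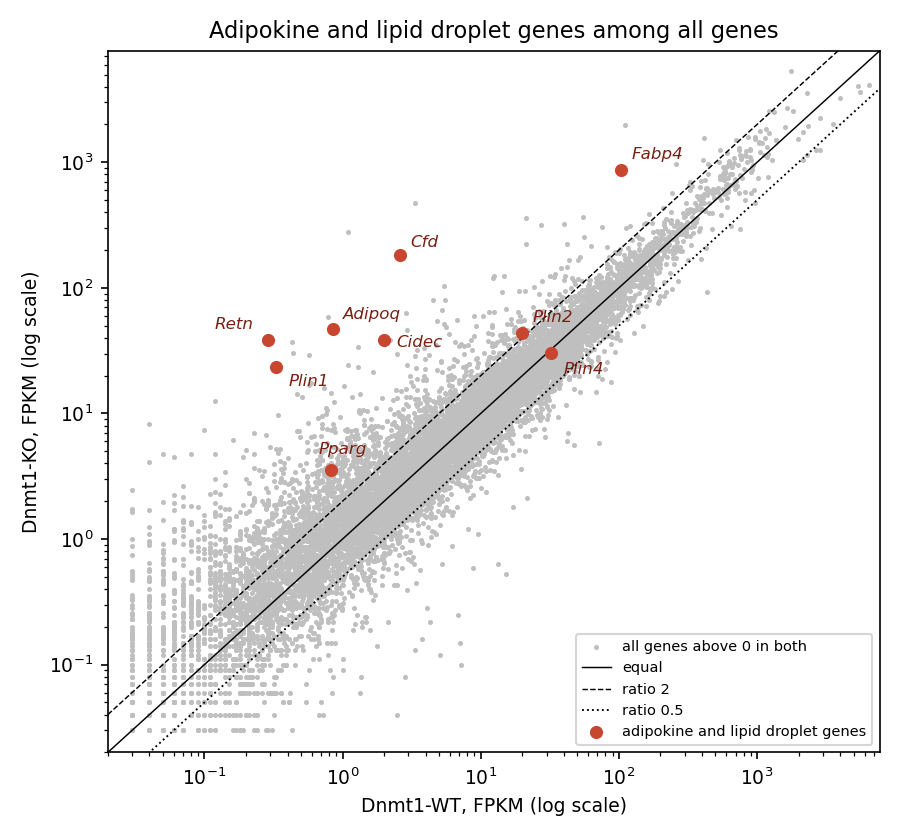
Each of the 16102 genes above 0 in both libraries (grey), with *Dnmt1*-WT FPKM on the horizontal and *Dnmt1*-KO FPKM on the vertical log axis and the 9 adipokine and lipid droplet genes in red. Retn, Plin1, Adipoq, Cfd and Cidec lie above most of the cloud, while Plin2 lies at the line for a ratio of 2 and Plin4 at the line of equal values.

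The table also lists how many transcript variants were found per gene. *Retn*, *Plin1* and *Cidec* were listed with 1 variant in *Dnmt1*-WT and 2 in *Dnmt1*-KO. They were 3 of the 6 genes with 1 variant in *Dnmt1*-WT, the others being *Adipoq*, *Fabp4* and *Plin4*, which had 1 in both. Among the 6758 genes of the table with 1 variant in *Dnmt1*-WT, 11.4% had more in *Dnmt1*-KO. Among the 160 of these with a ratio of 10 or more it was 22.5%. That second share is not a background for all 6 genes, as *Fabp4* and *Plin4* had ratios below 10. *Cfd* and *Plin2* had 2 variants in both libraries and *Pparg* had 3.

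The 10 genes lie on 8 chromosomes. In GENCODE M21, on GRCm38 or mm10, *Cfd* lies on chromosome 10 from 79890853 to 79892655, *Adipoq* on chromosome 16 from 23146536 to 23158028 and *Retn* on chromosome 8 from 3655770 to 3660110, all on the plus strand. On the minus strand, *Fabp4* lies on chromosome 3 from 10204088 to 10208576, *Plin1* on chromosome 7 from 79720218 to 79732903, *Plin2* on chromosome 4 from 86648386 to 86670060 and *Plin4* on chromosome 17 from 56100591 to 56109803. Chromosome 6 holds *Lep* from 29060220 to 29073877 and *Pparg* from 115360951 to 115490399 on the plus strand, and *Cidec* from 113424634 to 113435760 on the minus strand.

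The nearest protein-coding gene of the table on each side was taken for each, which gave 20 neighbours, and none overlapped one of the 10 genes. Of the 18 neighbours above 0 in both libraries, 1 had a ratio of 2 or more and 0 a ratio of 0.5 or less, with a median ratio of 1.06. Beside *Cfd*, *Med16*, 2050 bases away, had 17.0 and 16.3 FPKM, and *Prtn3* had 0.40 and 0.39 FPKM. Beside *Plin1*, *Pex11a*, 3052 bases away, had 2.59 FPKM in *Dnmt1*-WT and 3.44 FPKM in *Dnmt1*-KO. The neighbour with a ratio of 2.49 was *Fabp5*, of the same family as *Fabp4* and 187731 bases from it. The neighbours were named after their values were seen.

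Other genes of the same pathways were read from lists, and the shares above serve as their background. Where 2 values follow a gene, the first is that of *Dnmt1*-WT and the second that of *Dnmt1*-KO. Of 22 further adipokines above 0 in both libraries, 12 had a ratio of 2 or more and 0 of 0.5 or less, with a median log2 ratio of 1.21. *Lcn2*, the siderophore-binding lipocalin that neutrophils and epithelia also secrete, had 0.47 FPKM in *Dnmt1*-WT and 14.3 FPKM in *Dnmt1*-KO, and *Retnla*, a resistin relative made by macrophages, had 2.20 and 38.8 FPKM. *Rarres2*, which encodes chemerin and was the most abundant of this list in *Dnmt1*-WT, had 573 and 557 FPKM, and *Nampt* had 10.8 and 8.29 FPKM. The adipokines beyond the 4 described above thus held both high ratios and ratios near or below 1.

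Of 8 receptors of these hormones, 3 had a ratio of 2 or more: the chemerin receptor *Cmklr1* with 2.76 and 8.05 FPKM, the leptin receptor *Lepr* with 0.73 and 1.72 FPKM, and the apelin receptor *Aplnr* with 4.52 and 10.4 FPKM. The adiponectin receptors *Adipor1*, with 47.7 and 46.9 FPKM, and *Adipor2*, with 23.2 and 31.9 FPKM, had ratios of 0.983 and 1.37. *Cdh13*, a cadherin that binds adiponectin, had a ratio of 0.644. Across the 8 receptors the median log2 ratio was 0.71.

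Enzymes that make triglyceride had ratios of 2 or more in a larger share than lipolysis genes or other droplet proteins. Of 11 genes of triglyceride synthesis, 6 had a ratio of 2 or more, with a median log2 ratio of 1.10. The highest were *Gpd1*, which supplies glycerol phosphate, with 4.22 and 29.3 FPKM, *Pck1* with 3.93 and 26.9 FPKM, and the acyltransferase *Agpat2* with 8.08 and 35.4 FPKM. *Gpam*, which catalyses the first acylation, had a ratio of 0.744. Of 9 genes of lipolysis 3 had a ratio of 2 or more, among them the lipases *Pnpla2*, with 34.4 and 74.8 FPKM, and *Lipe*, with 9.60 and 25.02 FPKM, and the median log2 ratio was 0.41. *Mgll*, which splits monoglycerides and was the most abundant of these in *Dnmt1*-WT, had 63.6 and 47.1 FPKM, and the phosphodiesterase *Pde3b* had 15.7 and 9.18 FPKM. Of 15 other droplet proteins 3 had a ratio of 2 or more and 1 of 0.5 or less, with a median log2 ratio of 0.30. *Fitm1*, with 0.15 and 1.73 FPKM, and *Cideb*, with 2.68 and 7.57 FPKM, were among the 3. *Mettl7a1*, with 47.5 and 20.1 FPKM, was the gene at 0.5 or less. *Cidea*, the relative of *Cidec* found in brown fat, had 15.9 and 13.2 FPKM. The difference between these lists was not tested.

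Of 10 genes of fatty acid uptake, 4 had a ratio of 2 or more, with a median log2 ratio of 0.82. Lipoprotein lipase, *Lpl*, which frees fatty acids from circulating triglyceride, had 5.63 and 48.5 FPKM, the acyl-CoA synthetase *Acsl1* had 6.93 and 34.6 FPKM, and the transporter *Cd36* had 12.8 and 34.8 FPKM. *Cav1*, the caveolin of muscle and fat cells, had 275 and 198 FPKM. Of the 6 other fatty acid binding proteins, 4 had a ratio of 2 or more, and all 6 had ratios above 1. Those of the intestinal epithelium, *Fabp1*, *Fabp2* and *Fabp6*, had 42.1 and 145, 38.8 and 85.1, and 0.74 and 15.9 FPKM, and *Fabp5* had 26.3 and 65.5 FPKM. *Fabp3*, the form of heart and muscle, had a ratio of 1.30.

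The transcription factors around *Pparg* gave no common pattern. *Cebpa*, its partner in fat cells, had 1.34 FPKM in *Dnmt1*-WT and 14.4 FPKM in *Dnmt1*-KO, a ratio of 10.8. Of 16 adipogenic factors, 4 had a ratio of 2 or more and 0 of 0.5 or less, with a median log2 ratio of 0.40. *Ebf1*, with 1.62 and 4.75 FPKM, and *Klf5*, with 4.36 and 9.68 FPKM, were among the 4, while the glucocorticoid receptor *Nr3c1* had a ratio of 0.544. Of the 9 PPAR and RXR family genes and their coactivators, 1 had a ratio of 2 or more, the liver X receptor *Nr1h3* with 1.30 and 4.42 FPKM, and 1 of 0.5 or less, *Ppara* with 1.95 and 0.70 FPKM. *Ppard* had a ratio of 1.004, and the median log2 ratio of the 9 was −0.28. Of 11 inhibitors of adipogenesis, 3 had a ratio of 2 or more, among them *Dlk1*, the preadipocyte protein, with 8.22 and 24.6 FPKM. The median log2 ratio of these inhibitors was −0.21, and *Nr2f2*, *Tcf7l2* and *Ncor1* had ratios of 0.631, 0.722 and 0.741.

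**Figure D4:**
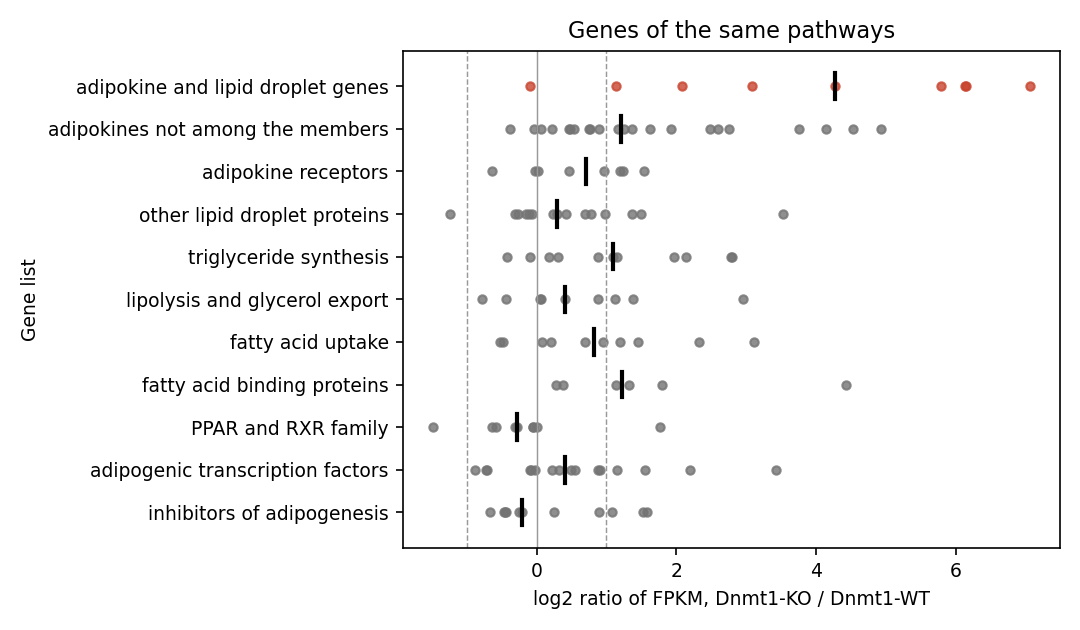
log2 ratio of FPKM in *Dnmt1*-KO over *Dnmt1*-WT for each gene above 0 in both libraries (points) and the median of each list (black bar), with dashed lines at ratios of 2 and 0.5. The median of the 9 adipokine and lipid droplet genes is 4.27, and the highest median of the other lists is 1.23, of the fatty acid binding proteins.

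Markers of fat cells were read from a list chosen with earlier results of these data known, so they describe the libraries and are no check. Of 15 adipocyte markers above 0 in both libraries and not among the 10 genes, 11 had a ratio of 2 or more, with a median log2 ratio of 2.79. Their summed FPKM was 496 in *Dnmt1*-WT and 974 in *Dnmt1*-KO, and 1 further marker, *Acvr1c*, was at 0 in *Dnmt1*-WT and 0.73 FPKM in *Dnmt1*-KO. Most of the difference in these sums came from *Car3*, the carbonic anhydrase of fat and muscle, with 27.2 and 315 FPKM, and *Sncg*, a synuclein that neurons also make, with 211 and 316 FPKM. *Mrap* and *Thrsp*, chosen after their values were seen, had 0.12 and 12.5 FPKM and 1.66 and 21.5 FPKM. *Aoc3* and *Slc2a4*, the latter also chosen after its values were seen, are shared with muscle and had 130 and 88.1 FPKM and 89.7 and 62.4 FPKM. The adipocyte list shares *Lpl*, *Gpd1*, *Agpat2* and *Lipe*, all at a ratio of 2 or more, with the pathway lists above. It is therefore not separate from them, and other cell type lists share genes with the pathway lists too. Of 5 brown fat markers above 0 in both, 0 had a ratio of 2 or more, and *Elovl3* was at 0 in both libraries. The summed level of the brown fat list was 105 FPKM in *Dnmt1*-WT and 122 FPKM in *Dnmt1*-KO. Most of both sums came from *Cox8b*, with 44.6 and 72.15 FPKM, and *Cox7a1*, with 41.5 and 33.7 FPKM.

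Markers of further cell types that can hold fat or express *Fabp4* had higher summed levels in *Dnmt1*-KO, with single markers lower among the foam cell and stromal lists. All 12 macrophage markers had a ratio above 1 and 9 had a ratio of 2 or more, with none at 0 and a summed level of 157 FPKM in *Dnmt1*-WT and 530 FPKM in *Dnmt1*-KO. *C1qa* had 31.6 and 125 FPKM and *Lyz2* 27.8 and 113 FPKM. Of 10 markers of lipid-laden macrophages, or foam cells, above 0 in both, 5 had a ratio of 2 or more, with sums of 450 and 550 FPKM, and *Olr1* was at 0 in *Dnmt1*-WT. Most of these sums came from *Cd9*, with 216 and 228 FPKM, and *Ctsd*, with 185 and 213 FPKM. Of 11 endothelial markers, 8 had a ratio of 2 or more and none was at 0, with sums of 94.8 and 221 FPKM, and *Pecam1* had 15.8 and 38.8 FPKM. The 11 markers of preadipocytes and adventitial stroma included 6 with a ratio of 2 or more, none at 0, and sums of 239 and 358 FPKM. *Cd34*, of that list, had 28.4 and 64.9 FPKM and *Pdgfra* 68.9 and 40.7 FPKM. The part of these cells in the values of the 10 genes was not tested.

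Levels of markers of other cell types in the dissected tissue also differed between the libraries. Of 12 smooth muscle markers, 0 had a ratio of 2 or more and 4 of 0.5 or less, with sums of 25238 and 17098 FPKM. Enterocyte markers, whose cells lie in the mucosa, had a ratio of 2 or more for 7 of 12 and of 0.5 or less for 1, with none at 0 and sums of 531 and 1154 FPKM. Leukocyte markers had a ratio of 2 or more for 8 of 8, with a median log2 ratio of 1.97 and sums of 55.9 and 239 FPKM. Erythroid markers had it for 4 of 4 above 0 in both, with a median log2 ratio of 2. Their sums were 172 and 562 FPKM, while *Hbb-b1* had 46.4 FPKM in *Dnmt1*-WT and was at 0 in *Dnmt1*-KO. Hepatocyte markers, at low levels, had it for 7 of 8, with a median log2 ratio of 2.24 and sums of 2.93 and 10.2 FPKM. Skeletal muscle markers had it for 6 of 10 and a ratio of 0.5 or less for 1, with sums of 159 and 154 FPKM. Pancreatic acinar markers were lower, with 50.4 and 4.27 FPKM, and 6 of 10 were at 0 in *Dnmt1*-KO alone. Mesothelial markers, from the outer covering of the gut, had sums of 418 and 573 FPKM with 2 of 9 at a ratio of 2 or more. The part of each in the values of the adipokine and droplet genes was not tested, and with 1 library each, genotype and a difference in dissection cannot be told apart.

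**Figure D5:**
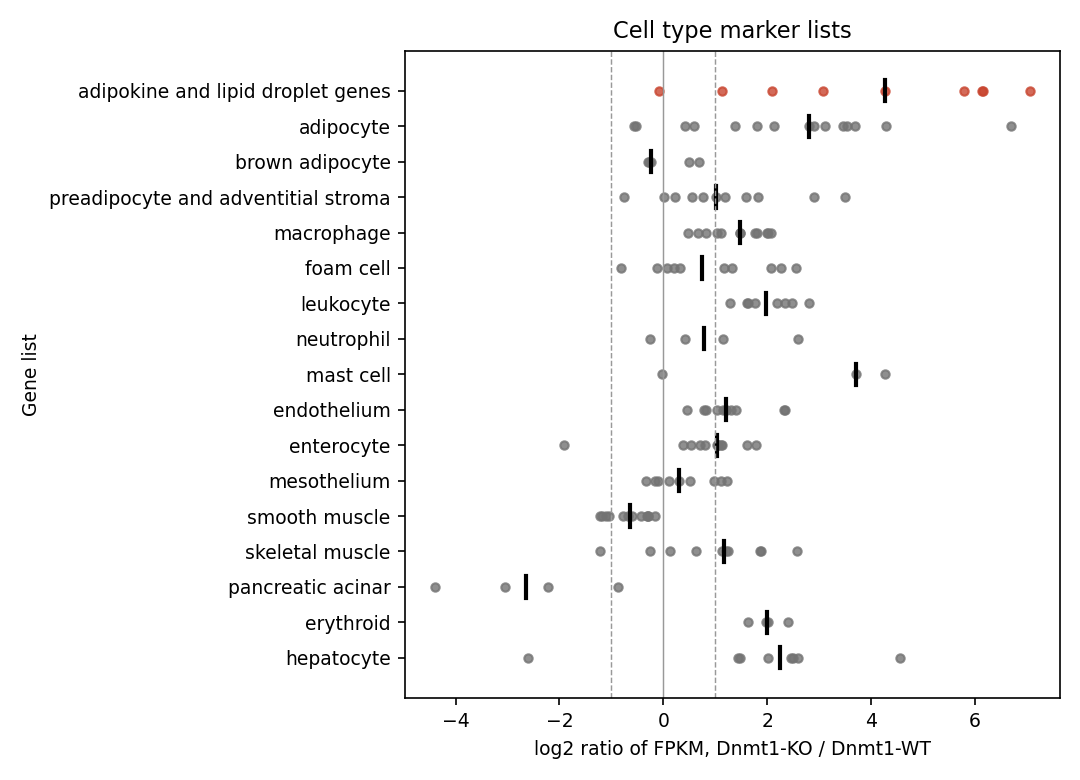
log2 ratio of FPKM in *Dnmt1*-KO over *Dnmt1*-WT for the markers of 16 cell types above 0 in both libraries (points) with the median of each list (black bar) and dashed lines at ratios of 2 and 0.5. The adipocyte list has a median of 2.79, the hepatocyte list one of 2.24 and the smooth muscle list one of −0.64. The mast cell median of 3.70 rests on 3 genes.

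The genes nearest to the median ratio of the 9 genes, among those with at least 10 FPKM in *Dnmt1*-KO, were not lipid droplet genes. They were *H2-Ab1*, an MHC class II chain, with a ratio of 19.0, *Zfp575* with 18.2, *Fcna* with 17.9, *Gm10845* with 17.9 and the prion protein gene *Prnp* with 17.8. This likeness is the size of 1 ratio between 2 libraries, and *Cidec*, with 19.2, is the gene that sets that median.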

How the data were processed

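The authors sequenced TruSeq RNA libraries of jejunal muscle and deposited FPKM per gene for 1 library of each genotype, with the number of transcript variants found and their own ratio, which was not used. The submitters' processing notes name TopHat 1.4.1, Cufflinks 2.0.2 and the build mm10. Depth per gene is unknown. Ratios are plain ratios of the deposited FPKM, listed to 2 decimals, without rescaling, over genes above 0 in both libraries. A ratio of 2 or more, or of 0.5 or less, was counted, and no test was made. The 10 genes and all lists were chosen with earlier results of these data known. Named were the 10 genes, all genes of lists with up to 8, the 3 highest and 3 lowest of longer pathway lists by ratio of FPKM + 1, the 2 most abundant of cell type lists, the 5 genes nearest in ratio, *Dnmt1*, *Gapdh* and *Actb*. A gene that this rule names is not reported here. Exceptions are stated as chosen after their values were seen, and *Plin3* and *Plin5* complete their family, as *Acvr1c*, *Elovl3* and *Olr1* account for markers at 0. Alternatives were 4 scalings, 0.1 or 1 FPKM added, 3 filters on low values and folds of 1.5 and 4. The code that counts genes past a fold was checked on simulated data, which is a check of the counting and not of the genotypes. Gene positions are from GENCODE M21, upstream sequences from RefSeq. Python 3.11.15, numpy 2.4.6, pandas 2.3.3 and matplotlib 3.10.9 were used.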

Additional observations from a re-analysis of the deposited data

How the results depend on the processing

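Under the 4 scalings, all 36 ratios of single genes stayed within 1.5 times their value, 8 genes kept a count at a ratio of 2 or more, and 0 ratios reversed under any alternative. With 1 FPKM added, *Adipoq*, *Retn*, *Plin1* and *Pparg* had ratios of 25.8, 30.7, 18.3 and 2.47, lower by over 1.5 times because their *Dnmt1*-WT values are below that amount. The median log2 ratio of the genes was 3.64 with 0.1 FPKM added and 3.39 with 1 FPKM added, both with *Lep* included. Keeping only genes at 1 FPKM or more in both libraries left 5 of the 10, of which 4 had a ratio of 2 or more, with a median log2 ratio of 3.08. Keeping genes at 10 FPKM or more in at least 1 library gave a median of 5.02, but 5 of the 8 genes kept pass through their *Dnmt1*-KO value alone, so this filter is no check of that median. The share of all genes at a ratio of 2 or more was 4.89% with 1 FPKM added, 5.53% and 5.203% under these filters, 19.7% at a fold of 1.5 and 4.25% at a fold of 4. No paired analysis was possible because each genotype has 1 library. Without replicates and read counts, neither biological nor counting error is known, and values below about 1 FPKM, as of *Lep*, are the least certain.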
